A study of Pan paniscus with 11 samples.

Results

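One fibroblast line of the bonobo, Pan paniscus, was profiled in both of its cultures, the first harvested under the standard conditions of the study and the second at 50% confluence. Confluence is the share of the dish that the cells cover. Both cultures came from the line of a healthy male aged 4 years, here male line 1, and each was read on 1 array. They are 2 of the 11 cultures of the series, identified by their labels. The other 9 cultures were standard harvests of lines from 9 other bonobos, 5 female and 4 male, aged 2 to 20 years, and served as the reference range for every gene. No genetic change or drug treatment is named for any culture. With 1 array per culture of the line there is no test of a difference and no error on it. The spread between the 9 lines, which holds differences between animals as well as between cultures, is the only yardstick. How dense the standard culture was at harvest, and at which passage either culture was taken, is not stated in the labels.

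Fibroblasts are the connective tissue cells that make and remodel collagen-rich matrix. Cultured fibroblasts divide while space and growth factors allow and slow down when the dish fills, a behaviour known as contact inhibition. Sparse cells tend to spread and to pull on the dish through actin and focal adhesions, whereas crowded cells touch one another and build up matrix. DNA replication genes are known to be transcribed mostly around the entry into S phase, under E2F factors, and mitotic genes later in the cycle.

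Values are array intensities on a linear scale. Values below 100 were set to 100, called the floor here, so that 100 stands for 100 or less. Of 12625 probe sets, 67 were controls, and 6147 of the other 12558 were above the floor in both cultures. A difference is the log2 intensity at 50% confluence minus that of the standard culture. A gene is represented by the probe set with the highest mean. Differences in amount per cell and in the share of cells that express a gene cannot be told apart in such bulk RNA.

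The 50% confluence array differed from the others in its control signals. The 18S ribosomal RNA controls lay between 1508 and 2611 there, against 100 in the standard culture and 100 to 313 in the 9 lines. The ratio of the 3' to the 5' probe set was 0.669 for ACTB, the cytoplasmic actin gene, against 1.42 in the standard culture and 0.853 to 2.27 in the 9 lines. For GAPDH the ratio was 0.815 against 1.17, with 0.691 to 1.67 in the 9 lines. The share of probe sets above the floor was 57.1% in one culture and 56.7% in the other. These control signals move with every difference given below, and their part in those differences was not tested.

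Differences between the cultures were balanced in direction. Over 4564 genes above the floor in both, the median difference was 0, with 2275 genes higher and 2270 lower at 50% confluence. More than 2-fold higher were 300 probe sets (4.88% of those measured), and 292 were lower by that much (4.75%). Counted by gene, 213 were higher (4.67%) and 211 lower (4.62%) by over 2-fold. These 4 shares are the background against which the gene groups are read. Of the 135 genes with 3 or more probe sets above the floor in both, MYH11, the smooth muscle myosin heavy chain gene, was the 1 for which all lay over 2-fold the same way. Its 4 probe sets gave log2 differences of 1.74 to 3.01.

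The reference range was then used to place both cultures. Over all 6147 probe sets, the 50% confluence value lay outside the 9 lines in 19.5% and the standard value in 13.5%. Of the 592 probe sets over 2-fold apart, 223 (37.7%) had the 50% confluence value outside the range of the 9 lines while the standard value lay inside it. In 106 (17.9%) the standard culture was the one outside, in 38 (6.42%) both were, and in 225 (38.0%) both cultures lay within the range that standard lines span anyway. By gene, 87 were over 2-fold higher with the 50% confluence culture alone outside (1.91% of genes measured), and 71 were over 2-fold lower in that way (1.56%). A stricter count is of differences over 2-fold that exceeded the whole width of the 9 lines, which held for 164 probe sets (2.67%).

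**Figure D1:**
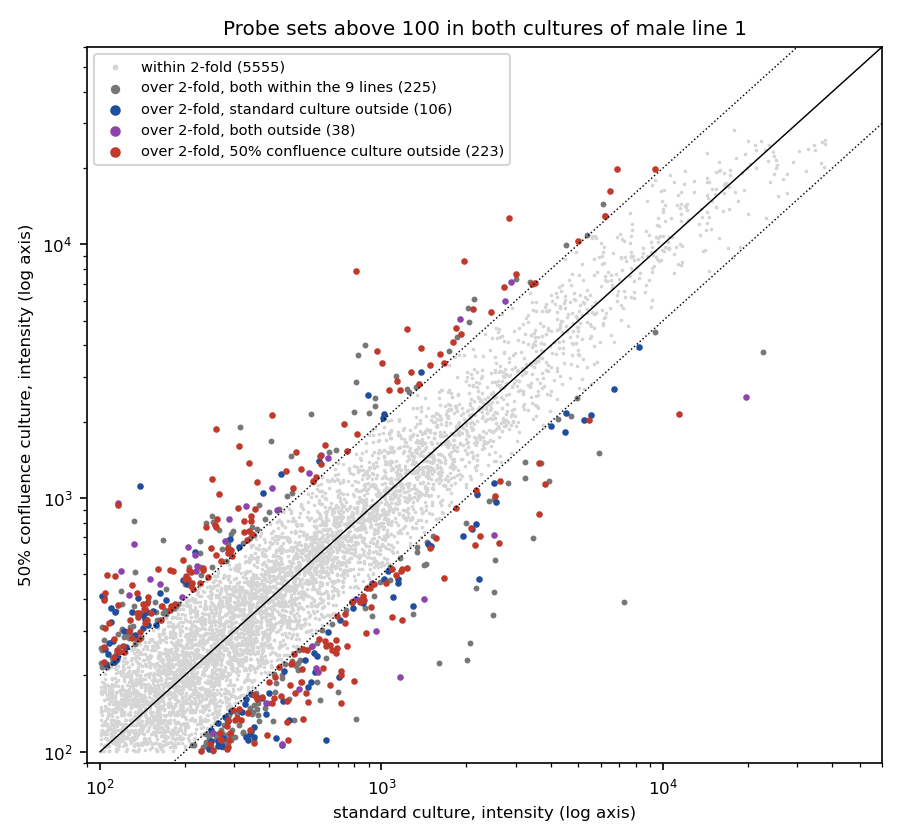
Intensity at 50% confluence against intensity in the standard culture for the 6147 probe sets above 100 in both, on log axes. The solid line marks equal values and the dotted lines 2-fold. Colours give the position of each culture against the 9 other lines: 223 of the 592 probe sets over 2-fold apart have the 50% confluence culture alone outside, and 225 have both within.

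Genes that stood outside at 50% confluence included matrix, actin and adhesion genes. COL10A1, a collagen gene best known from growth plate cartilage, read 258 in the standard culture and 1864 at 50% confluence, 7.22-fold higher. In the 9 lines it ran from 100 to 1346, with a median of 448. The standard culture thus lay below the middle of the lines and the other above all of them. MFAP5, which encodes a protein of elastic microfibrils, went from 409 to 2123, where the 9 lines read 117 to 742. COL11A1, a minor collagen of fibrils, went from 1964 to 8588, against 100 to 4289 and a median of 535. ACTC1, the cardiac actin gene, read 2842 and 12754, with 174 to 3974 in the 9 lines. For both of these genes the standard culture already lay in the upper part of the range.

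Several further genes of this kind encode proteins of signalling and protein turnover. UCHL1, a ubiquitin hydrolase gene, read 1232 and 4636, with 100 to 2801 in the 9 lines. MSI1, which encodes the RNA-binding protein Musashi-1, read 339 and 1369 against 160 to 723. HEBP2, a gene of a haem-binding protein, read 251 and 1194, with the 9 lines between 141 and 529. KCTD20 read 265 and 1041, with 196 to 532 in the lines, and its other measured probe set was also higher (1.56 on the log2 scale). For NF2, which encodes merlin, a tumour suppressor of the Hippo pathway, the values were 1002 and 3407 against 411 to 1202. A second NF2 probe set differed by 0.06 only, so the gene's probe sets disagree.

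The other genes among the 15 largest were SERPINB7, ADGRL2, CTSW, PSG11, PVR and RANBP9. ADGRL2, an adhesion receptor gene of the latrophilin family, read 106 and 497, and a second probe set gave -0.10. With a floor of 200 the difference of ADGRL2 was 1.31 in place of 2.23, that of CTSW 1.08 in place of 2.03, that of PVR 1.19 in place of 1.81 and that of RANBP9 0.92 in place of 1.71. PSG11 belongs to a family of near-identical pregnancy-specific glycoprotein genes, so its signal may come from several of them.

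Genes that stood below all 9 lines at 50% confluence included secreted and matrix-linked proteins. PLPP3, a phosphatase gene that acts on lipid messengers, read 11416 in the standard culture and 2136 at 50% confluence, 5.34-fold lower, where the 9 lines read 6185 to 14107. AEBP1, which encodes a collagen-binding secreted protein, went from 3621 to 869. The 9 lines lay between 2416 and 4108, with a median of 2700. The spread of AEBP1 between lines was therefore narrow beside the gap. NID1, the gene of nidogen, which links laminin to type IV collagen, read 721 and 208 against 475 to 847. C1R, a protease gene that starts the classical complement cascade, read 1186 and 331 against 702 to 4797.

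Regulatory genes were also among them. RUNX1T1, a transcriptional corepressor gene, read 721 and 155, with 433 to 1501 in the 9 lines. RCC1, which encodes the exchange factor of the transport GTPase Ran, read 463 and 131 against 238 to 546. JUNB, a gene of the AP-1 transcription factor, read 878 and 295, and the lowest of the 9 lines read 296. JUNB thus lay at the edge of the range, though a second probe set of it was lower still (-2.52). The zinc transporter gene SLC39A7 read 2141 and 654 against 917 to 2373, and IFITM1, an interferon-induced membrane protein gene, 1093 and 340 against 482 to 1657. RALB, APBA3, S100A3, SZRD1, FBLN1 and DLST made up the rest of the 15. Second probe sets of RALB (-0.21) and FBLN1 (-0.09) were close to 0, so these genes rest on 1 probe set. With a floor of 200 the difference of RALB was -1.21 in place of -2.06, and that of RCC1 -1.21 in place of -1.82.

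**Figure D2:**
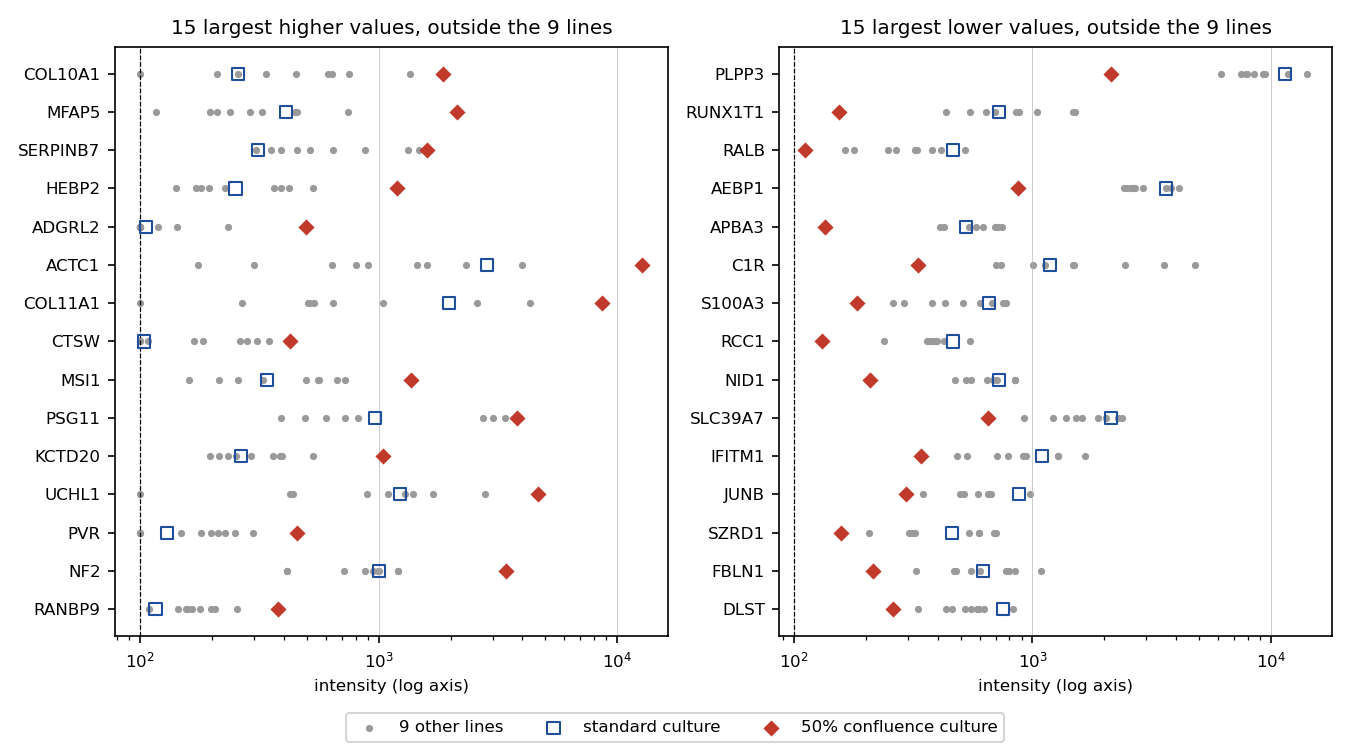
Intensity on a log axis for the 15 genes with the largest higher and the 15 with the largest lower difference among those over 2-fold apart with only the 50% confluence culture outside the 9 lines. Grey points are the 9 other lines, the open square is the standard culture, the filled diamond is the 50% confluence culture and the dashed line is the floor. AEBP1 sits at 869 below lines that read 2416 to 4108.

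Some genes were at the floor in only one of both cultures. Of all genes, 114 read at least 200 at 50% confluence with the standard culture at the floor, and 102 the other way round. Of the 114, 51 read above the highest of the 9 lines at 50% confluence. Of the 102, 37 read above the highest of the 9 lines in the standard culture, and in 21 all 9 lines were above the floor. In 20 of the 114 all 9 lines were above the floor, so that in these the standard culture was the unusual one. NHERF2, a scaffold gene that ties membrane proteins to the actin skeleton, was such a case, with 100 in the standard culture, 542 at 50% confluence and 466 to 707 in the 9 lines. HIP1R, IRF2BP1, EDA and ITPK1 were likewise above the floor in all 9 lines and in the 50% confluence culture (508 to 551), although a second probe set of ITPK1 gave -0.24. EVX1, a homeobox gene, differed from them: it read 515 at 50% confluence, the floor in the standard culture and at most 133 in the 9 lines. PDPN, the gene of podoplanin, read 526 against the floor, with 100 to 1103 in the lines, and GPR31 read 466.

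In the other direction PTGS2, which encodes the inducible prostaglandin synthase COX-2, read 911 in the standard culture and the floor at 50% confluence, at least 9.11-fold lower. The 9 lines read 100 to 734, so the standard culture was above all of them. TYMP, thymidine phosphorylase, was at least 6.66-fold lower (666 against the floor), and here all 9 lines were above the floor, at 177 to 804. TGM2, a protein cross-linking enzyme gene, read 513 against the floor, FBN2, the gene of fibrillin-2, 405, and SSTR4 and VGF 491 and 394. ORC1 and CDC25A, both genes of cell cycle entry, completed the 8 largest.

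Gene groups were compared through 43 lists of genes. A list was called higher or lower where at least 2 in 3 of its members above the floor in both cultures lay that way and their median difference was at least 0.25. By this rule 4 lists were higher, 6 were lower and 33 had no direction. The level of a list is the mean log2 intensity of its genes above the floor in at least 5 arrays. The 50% confluence culture lay above the 9 lines in the level of 4 lists and below them in 1, whereas the standard culture lay above them in 8 and below them in 2. The standard culture was thus outside the lines in more lists than the culture at 50% confluence. Counted by gene the order was reversed, with 19.3% of genes outside at 50% confluence and 13.8% in the standard culture. Some genes belong to several lists, so the lists are not independent of one another.

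**Figure D3:**
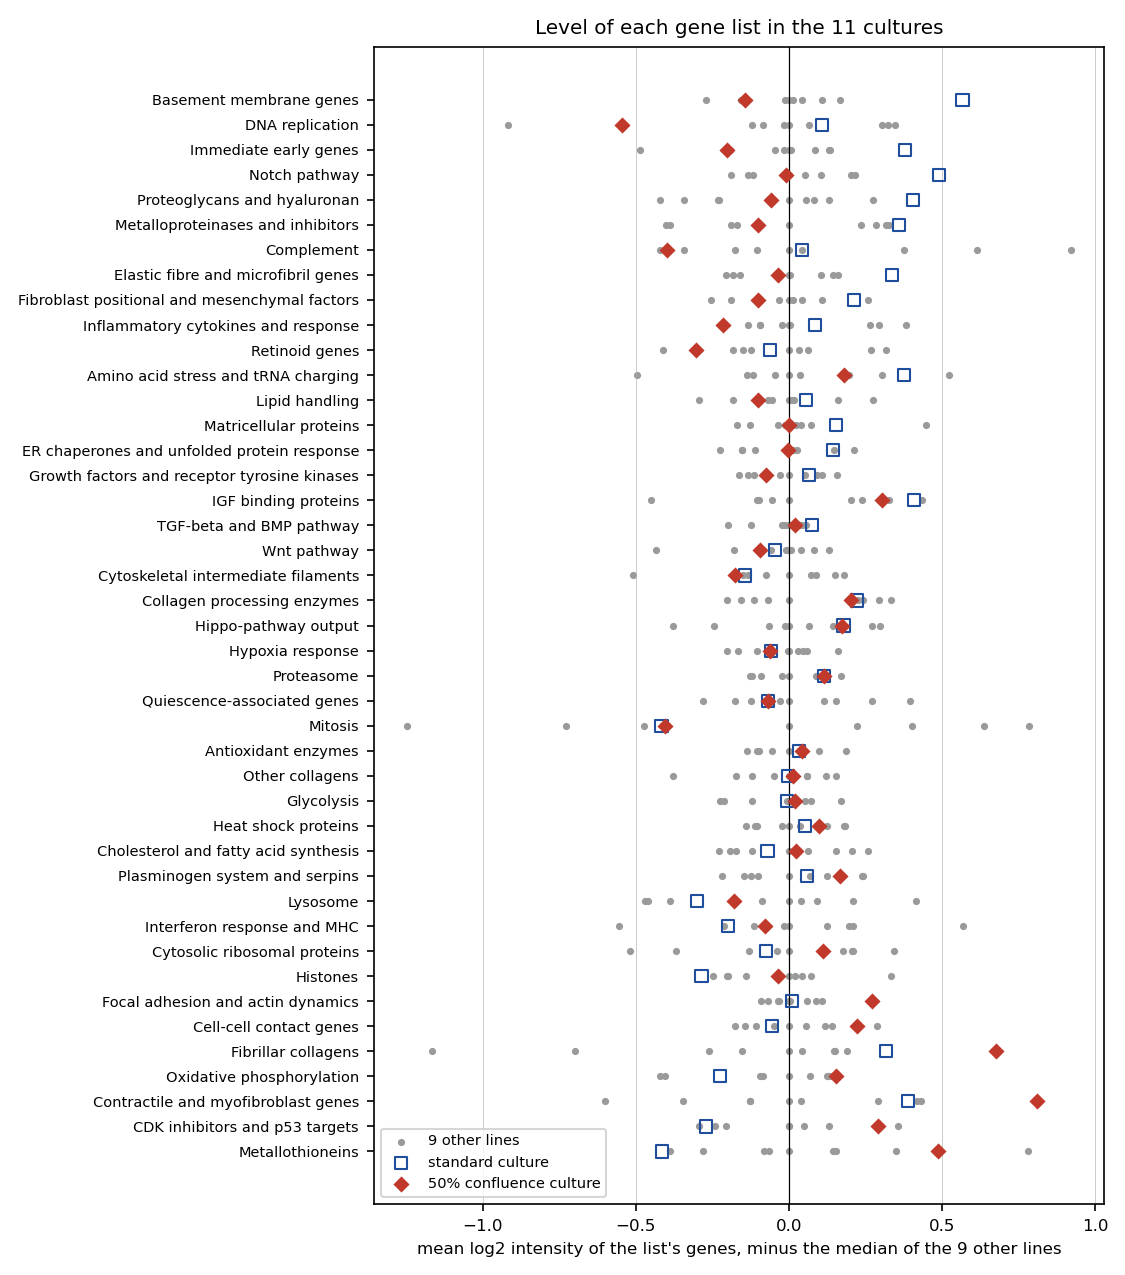
Level of the 43 gene lists in each of the 11 cultures, as mean log2 intensity minus the median of the 9 other lines, ordered by the difference between both cultures of male line 1. Grey points are the 9 lines, open squares the standard culture and filled diamonds the 50% confluence culture. For basement membrane genes the square (9.98 before subtraction) lies above all 9 lines and the diamond (9.26) among them, while for contractile genes the diamond (11.64) lies above all of them.

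DNA replication genes were lower at 50% confluence. Of 41 members above the floor in both cultures, 33 were lower, 11 of them by over 2-fold, and 7 were higher, with a median difference of -0.55. A further 14 were above the floor in the standard culture only, and 0 at 50% confluence only. The licensing genes, whose products load the helicase on origins, were the lowest subgroup: all 9 measured in both were lower, with a median of -1.11. MCM4, a helicase subunit, read 580 and 206, MCM2 1451 and 670, and MCM6 1522 and 706. ORC1, a subunit of the origin recognition complex, went from 430 to the floor, and CDT1, which recruits the helicase, from 346 to 141. Both cyclin E genes were at the floor at 50% confluence, with standard values of 358 for CCNE2 and 323 for CCNE1.

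Among polymerase and fork genes 14 of 17 were lower, with a median of -0.68. RFC2, a clamp loader subunit, read 335 and 111, and POLD3, a polymerase delta subunit, 563 and 188. The sliding clamp gene PCNA was lower by less, 2447 and 1607, and a second probe set of it gave 0.03. With a floor of 200 the difference of RFC2 was -0.74 in place of -1.59. In the genes of nucleotide supply and new chromatin 7 of 9 were lower, with a median of -0.25. CHAF1A, which puts histones on new DNA, read 550 and 180 and was the 1 of these over 2-fold apart. TYMS, the thymidylate synthase gene, read 1644 and 1266, with a second probe set at -1.16, while RRM1 went the other way, 278 and 491.

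The regulators of S phase entry did not share a direction where they could be measured. Of 6 above the floor in both cultures 3 were lower, 2 higher and 1 equal, with a median of -0.03, and 5 more were at the floor at 50% confluence only. E2F1, the factor that activates many replication genes, read 407 and 156, and the lowest of the 9 lines read 161. CDK2, the kinase that cyclin E activates, read 2000 and 1132, with a second probe set at -1.27. The D-type cyclins, which act earlier in the cycle, were on the other side: CCND1 read 10006 and 13476, with its 2 other probe sets at -0.08 and 0.61, and CCND3 1006 and 1200, with a second probe set at -0.20. Their kinase gene CDK4 read 917 in both.

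Against the other lines the values of these genes were mostly not outside the range. The level of the list was 8.01 at 50% confluence, 8.66 in the standard culture and 7.64 to 8.90 in the 9 lines. The lowest of these, female line 1, stood apart at 7.64, and without it the other 8 lines lay above the 50% confluence culture. In 5 of 41 members the 50% confluence value was below the 9 lines (7.82% of all genes measured) and in 4 the standard value was above them (8.44% of all genes). CHAF1A, RFC2, POLD3 and MCM4 were those 4, so part of the gap in the strongest genes lay in a high standard value.

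Mitotic genes had no direction. Of 39 measured in both, 16 were higher and 22 lower, with a median of -0.06. The level was 8.20 at 50% confluence and 8.19 in the standard culture, with 7.36 to 9.39 in the 9 lines. CDK1, the mitotic kinase, read 437 and 264, and KIF2C, a microtubule depolymerase gene, 247 and 105 (a difference of -1.23, or -0.30 with a floor of 200). Against these, the kinase gene AURKA read 171 and 337, cyclin B1, CCNB1, 274 and 486, and TOP2A, which untangles chromosomes, 252 and 442. The proliferation marker MKI67 read 333 and 296. Values of replication and mitosis genes therefore lay apart within the same pair of cultures.

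Genes of cell cycle inhibitors and targets of p53, the transcription factor of the DNA damage response, were higher. Of 18 measured in both, 14 were higher, 3 by over 2-fold, and the median difference was 0.59. CDKN1A, which encodes the p21 inhibitor, read 2904 and 5636, with 1636 to 6560 in the 9 lines. Both values lay within the range, and 50% confluence was near its top. The other inhibitors were less far apart: CDKN2D read 180 and 297 (a second probe set gave -0.95), CDKN1C 162 and 237, CDKN2A 113 and 165, and RB1 139 and 142. RBL1, a relative of RB1, was at the floor in the standard culture and read 169. Among the p53 targets CCNG1 read 178 and 521, above the 130 to 416 of the lines, and TNFRSF10B, a death receptor gene, 648 and 1436, with 723 to 1340 in the lines.

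TP53I11 had the largest difference of the list, 116 against 958, with 124 to 899 in the 9 lines. Both cultures of male line 1 were outside that range, on opposite sides. BAX, a gene of the apoptosis machinery, read 2417 and 1490, and its 4 other probe sets ranged from -1.20 to 0.55. The level of the list was 8.83 at 50% confluence and 8.27 in the standard culture, against 8.24 to 8.90 in the lines, so the pair spanned nearly the whole range. Without female line 1 the 50% confluence culture lay above the other 8 lines, and without female line 5 the standard culture lay below them.

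**Figure D4:**
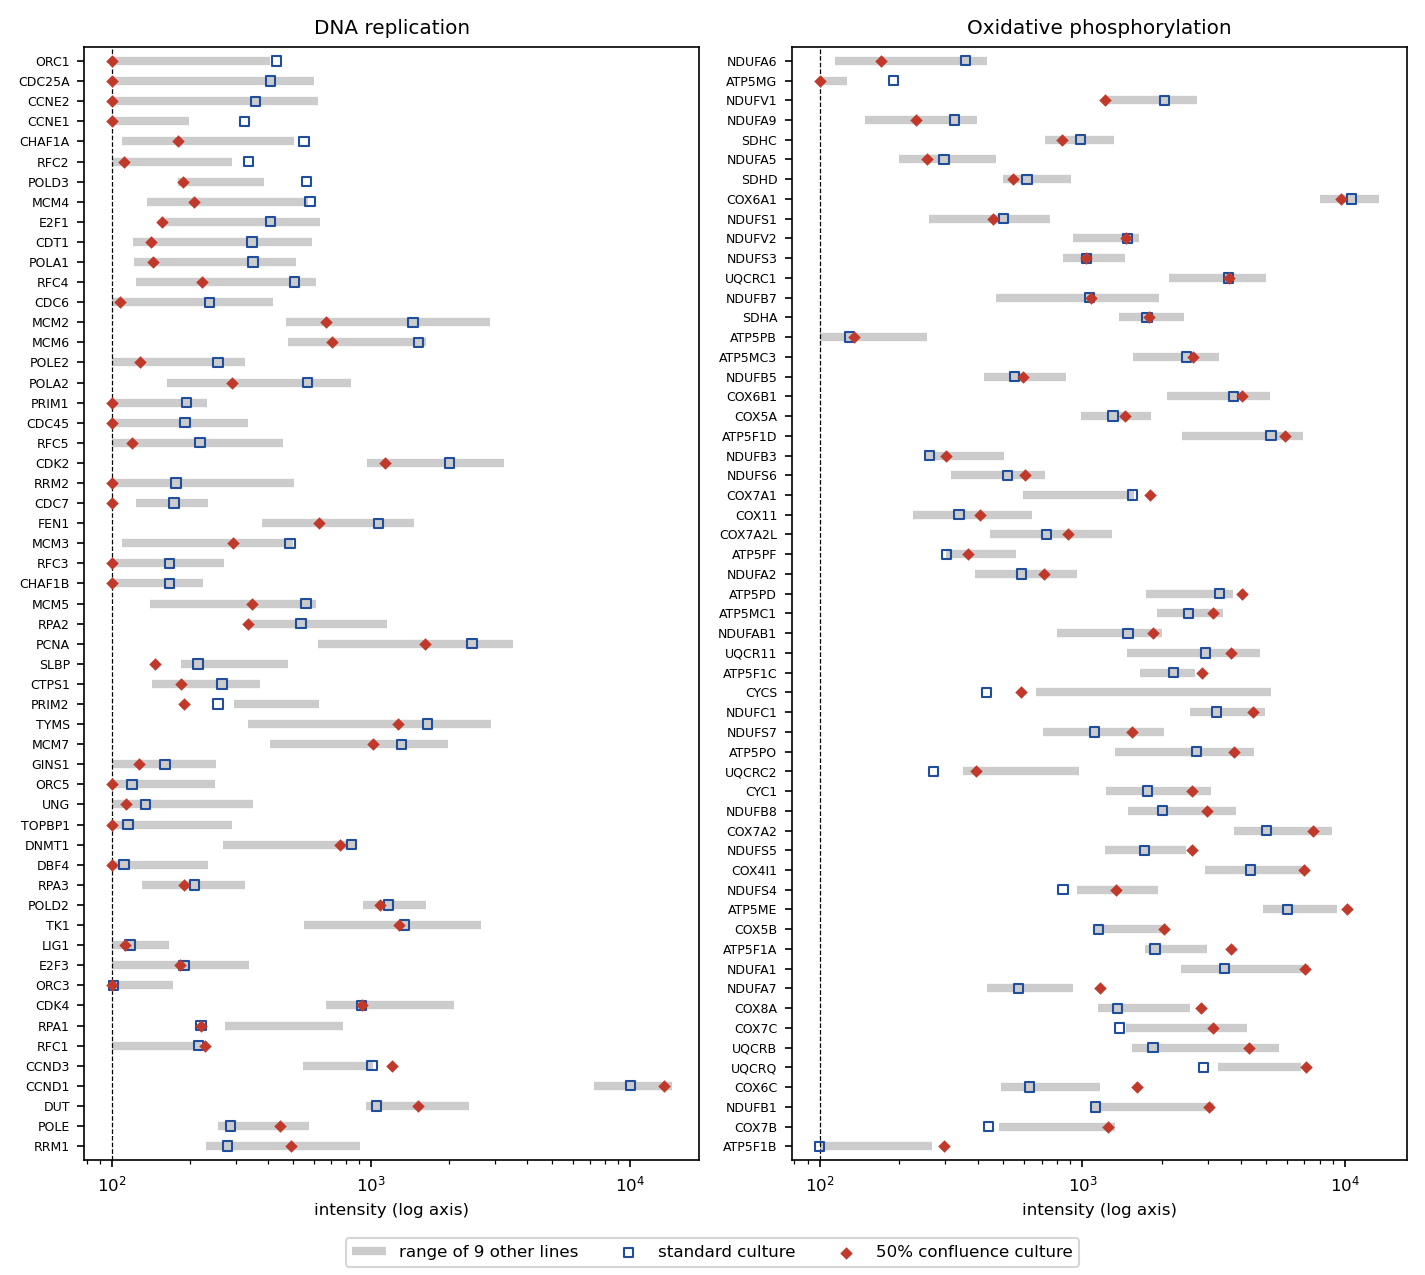
Intensity on a log axis of the DNA replication genes (left) and oxidative phosphorylation genes (right) above the floor in at least 1 culture, ordered by difference. Grey bars span the 9 other lines, open squares are the standard culture, filled diamonds the 50% confluence culture, and the dashed line is the floor. On the left the diamonds mostly lie left of the squares (33 of 41 members measured in both), and on the right mostly right of them (44 of 54).

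Immediate early genes, which answer growth factor signals within minutes, were lower in 26 of 31 members, 9 by over 2-fold, with a median of -0.30. In 9 of the 31 the standard culture was above the 9 lines, as it was for 8.44% of all genes. Its level for the list, 9.41, was above the 8.55 to 9.17 of the lines, and that of the 50% confluence culture was 8.83. Without female line 1, the lowest at 8.55, the 50% confluence culture lay below the other 8 lines. IER2 read 2510 and 714, and the 9 lines lay between 725 and 2162, so the cultures stood on either side. ZFP36, which encodes an mRNA decay factor, read 2544 and 969 against 816 to 2101, and EGR1, a zinc finger transcription factor gene, 785 and 391 against 211 to 514. For both, the standard culture was the one above the range. The dual-specificity phosphatase gene DUSP2 read 421 and 113, a difference of -1.90 that was -1.07 with a floor of 200. FOS read 257 and 144, JUN 257 and 162, and MYC 1033 and 846. TIPARP went the other way, with a log2 difference of 1.03.

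Genes linked to quiescence, the reversible resting state, did not share a direction: 12 of 21 were higher and 9 lower. GAS1, a growth arrest gene, read 689 and 246, below the 413 to 1168 of the lines, and a second probe set was also lower (-1.27). GAS6, the ligand gene of the AXL receptor, read 9354 and 17998, and IGFBP5, an IGF-binding protein gene, 3010 and 7326, both within the lines. PRELP, a matrix proteoglycan gene, read 252 and 808. PDGFRA, a growth factor receptor gene, read 790 and 403, but its 2 other probe sets gave 0.63 and 0.81, so its direction depends on the probe set.

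The Hippo pathway restrains the coactivator YAP when cells are crowded. Its output genes were evenly split, 10 higher and 10 lower, with a median of 0.01. The target gene ANKRD1 read 477 and 1470, within the 100 to 1480 of the lines, and THBS1, thrombospondin-1, 6860 and 19814, above their 2216 to 10032. CCN2 read 7083 and 8812, and CCN1 7859 and 6148. YAP1 itself read 406 and 259, below the 412 to 826 of the lines in both cultures. The best known targets were thus on both sides of equality.

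Contractile genes were higher at 50% confluence, with 23 of 30 members up in value, 7 by over 2-fold and 0 lower by over 2-fold. The median difference was 0.33. In 11 of the 30 the 50% confluence culture was above the 9 lines, a position found for 11.5% of all genes, and in 0 was it below. Tropomyosin TPM1, which lines actin filaments, read 6510 and 16186 against 4278 to 9084, though its 2 other probe sets gave -0.35 and 1.01. TPM2 read 10584 and 18848 against 1738 to 16122, and its 2 other probe sets gave 0.57 and 1.08. The actin cross-linker ACTN4 read 6205 and 12996 against 2665 to 8786, the myosin light chain MYL12A 2742 and 6002 against 2776 to 4383, and calponin CNN1 362 and 1154 against 100 to 1033. MYLK, the myosin light chain kinase, read 207 and 537, within the lines.

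Not every muscle-type gene moved apart. ACTA2, the smooth muscle actin that marks myofibroblasts, read 10185 and 12389 within 915 to 21614, and MYL9 read 6616 and 6710. TAGLN, or SM22, was lower, 24068 and 17618. MYH11 read 874 and 3997, and 1 of the 9 lines, female line 1, read more, at 6163. The level of the list was 11.64 at 50% confluence and 11.22 in the standard culture, against 10.23 to 11.26 in the lines. This position above the lines was kept under all 4 other scalings and floors tried and without each of the 9 lines in turn.

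Focal adhesions anchor actin bundles to the matrix. Their genes, with those of actin turnover, were higher in 33 of 47 cases, with a median of 0.19, short of the rule for a direction. In 12 of 47 the 50% confluence culture lay above the lines (11.5% of all genes). The standard culture was above them in 5 of the 47 and below them in 6 (8.44% and 5.32% of all genes). Actin turnover genes accounted for much of the count, at 21 of 25 higher, whereas adhesion plaque genes were lower in 8 of 12. CTTN, the gene of cortactin, read 1906 and 5059, and the 9 lines lay between 2387 and 3218 with a median of 2705. The standard culture was below this narrow range and the other above it. EZR, ezrin, which links membrane to actin, read 2109 and 5583 against 1727 to 3175. DSTN, an actin-severing protein gene, read 5594 and 10605 against 3854 to 7794, and the GTPase CDC42 934 and 1778 against 768 to 1729.

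Focal adhesion kinase, PTK2, read 108 and 269, and here the standard culture was below the 185 to 363 of the lines. With a floor of 200 this difference was 0.43 in place of 1.32. Of 10 integrin genes 8 were higher, among them ITGB1 (6088 and 9020) and ITGAV (455 and 766, with another probe set at -0.39). ITGA5, the fibronectin receptor subunit, was lower, 2902 and 2138. The level of the list was 10.83 at 50% confluence and 10.57 in the standard culture, against 10.47 to 10.67 in the lines. The 50% confluence culture was again above them under all 4 other scalings and floors. Cell-cell contact genes had a median of 0.26 with 12 of 19 higher. N-cadherin, CDH2, read 1206 and 1895, connexin 43, GJA1, 1018 and 1449, and ICAM1 the floor and 403, each within the lines. ALCAM, a cell adhesion gene, went the other way, with a log2 difference of -1.13.

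Basement membrane genes, whose products form the sheet under epithelia and around muscle cells, were lower in 10 of 13 members, 4 by over 2-fold, with a median of -0.74. The type IV collagen genes COL4A1 and COL4A2, which share a promoter region, read 2491 and 346, and 5943 and 1506. The 9 lines read 252 to 3315 and 819 to 7140, so that both cultures lay within the range of each. COL18A1 read 327 and 154, and here the standard culture was above the 100 to 195 of the lines, with a difference of -1.09 that was -0.71 with a floor of 200. COL15A1 read 4215 and 2466, with the standard culture above 264 to 3226. The laminin genes LAMC1, 2541 and 1518, and LAMB1, 414 and 277, were lower, and LAMA2, 998 and 1518, was higher. HSPG2, perlecan, was higher too, at 3415 and 5930, above the 1906 to 4284 of the lines.

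The level of basement membrane genes was 9.98 in the standard culture and 9.26 at 50% confluence, with 9.14 to 9.58 in the 9 lines. The standard culture was the one outside. This held in all 4 other scalings and floors and without each line in turn. At 50% confluence 1 of the 13 members, NID1, was below the 9 lines and 1, HSPG2, above them (7.82% and 11.5% of all genes). The standard culture was above the lines in 2 of the 13, COL15A1 and COL18A1, and below them in 0 (8.44% and 5.32% of all genes).

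Other matrix groups differed from this one. Of 6 fibrillar collagen genes 5 were higher by any amount, but only COL11A1 was far apart. COL1A1 read 15489 and 16515 (a second probe set gave 0.90), COL1A2 19602 and 22766, and COL3A1, the 1 that was lower, 5167 and 2955. In the level of these 6 genes both cultures were above the lines, at 12.25 and 11.89 against 10.41 to 11.77. Type VI collagen genes were lower: COL6A3 read 5452 and 2025, below the 2712 to 6080 of the lines, COL6A1 23188 and 12654, and COL6A2 27489 and 15923. The 2 other COL6A1 probe sets gave -0.31 and -0.02.

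Elastic fibre genes were split, 9 higher and 10 lower. ELN, elastin, read 4541 and 2172, with the standard culture above the 110 to 2296 of the lines, and MFAP4, a microfibril-associated gene, 2063 and 268, both within. FBN1, fibrillin-1, read 3463 and 5526, above the lines in both cultures. LOX, the collagen cross-linking oxidase, read 3275 and 5107. Proteoglycan genes were lower in 13 of 17, with a median of -0.34, and the standard culture (10.04) was above the 9.21 to 9.91 of the lines in level. ACAN, aggrecan, read 813 and 135 and GPC3, glypican-3, 2166 and 443, all within the lines. HAS2, the hyaluronan synthase, read 937 and 411. SDC1, syndecan-1, went the other way, 1063 and 2659 against 897 to 1569.

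Matrix metalloproteinases degrade the matrix, and TIMP proteins inhibit them. MMP1, the interstitial collagenase, had the largest difference measured above the floor among the genes named here, 7243 against 390, 18.6-fold lower. The 9 lines ran from 382 to 12032 with a median of 1356, so both values lay inside the range of standard harvests, at its upper and its lowest part. MMP14, the membrane-type enzyme, read 3682 and 1378, and a second probe set was also lower (-1.90). MMP3 read 239 and 109, a difference of -1.13 that was -0.26 with a floor of 200, and MMP11 386 and 239. MMP10 read 130 and the floor. MMP2 was higher, 237 and 348, and MMP15 read 496 and 537.

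Among the inhibitors TIMP3 read 7667 and 13262, above the 960 to 11053 of the lines, and a second probe set gave 1.05. TIMP2 read 2612 and 4621, with another probe set at 0.13, and RECK 502 and 583. TIMP1 read 36593 and 25328, and the standard culture was above the 18319 to 30742 of the lines. Its difference of -0.53 was -0.04 after quantile normalization. The metalloproteinase genes were lower in 4 of 6 with a median of -0.91, the inhibitors higher in 3 of 4 with a median of 0.50, and the whole list of proteases and inhibitors had a median of -0.01. In level the standard culture, 9.94, was above the 9.18 to 9.90 of the lines, which held in 3 of 4 other scalings and floors, and the 50% confluence culture, 9.48, lay within them.

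In the Notch pathway, which signals between touching cells, 7 of 10 members were lower, with a median of -0.47 that was -0.12 when all probe sets of each gene were averaged. NOTCH3, a receptor gene, read 2223 and 480. The 9 lines ran from 256 to 1060 with a median of 479, so the standard culture was the one outside and the other lay at the middle. JAG1, a ligand gene, read 829 and 580 (a second probe set gave 0.09), and HES1, a target gene, 512 and 229. RBPJ, the DNA-binding partner of the Notch receptor, read 1327 and 800, next to the lowest line at 801. RFNG, a modifier of the receptor, was higher, 224 and 442. In level the standard culture, 8.61, was above the 7.94 to 8.34 of the lines, and the 50% confluence culture, 8.11, within them.

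Growth factor and TGF-beta genes had no shared direction. Of 36 growth factor and receptor genes 22 were lower and 14 higher, with a median of -0.06. PDGFRB, the receptor for PDGF-BB, read 6679 and 2688, with the standard culture above the 1951 to 5015 of the lines, and a second probe set gave -1.38. FGF2 read 475 and 183, though its 2 other probe sets gave -0.97 and 1.10. In the TGF-beta list 15 of 28 were higher and 13 lower. The ligand TGFB1 read 3925 and 1166, both within the lines, and a second probe set gave -1.41. GREM1, a BMP antagonist, read 1167 and 2668 against 218 to 1759.

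Oxidative phosphorylation genes, which encode the mitochondrial respiratory chain and ATP synthase, were higher in 44 of 54 members, 9 by over 2-fold and 1 lower by over 2-fold, with a median of 0.30. In complex IV, cytochrome c oxidase, 12 of 13 were higher with a median of 0.59, in complex V, ATP synthase, 10 of 10 with a median of 0.30, in complexes II and III 8 of 10 (0.38), and in complex I 14 of 21 (0.22). These counts leave out genes at the floor in only one culture. In complex V, ATP5MG read 191 and the floor, with the standard culture above the 100 to 127 of the lines, and ATP5F1B the floor and 298. COX6C, a subunit of complex IV, read 628 and 1615 against 491 to 1169 in the lines. COX7B read 440 and 1248, with the standard culture below the 482 to 1330 of the lines. UQCRQ, of complex III, read 2894 and 7094, one culture below and the other above 3274 to 6811. ATP5F1A, the alpha subunit of ATP synthase, read 1889 and 3670 against 1729 to 2969.

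In the same list NDUFA6 read 359 and 171 and NDUFV1 2058 and 1218. CYCS, cytochrome c, read 432 and 585, in both cultures below the 667 to 5219 of the lines. The level was 10.65 at 50% confluence and 10.27 in the standard culture, with 10.08 to 10.63 in the 9 lines. The 50% confluence culture was thus just above the highest line, which held in 3 of 4 other scalings and floors. In 6 of the 54 the standard culture was below the lines, against 5.32% of all genes. Glycolysis genes had a median of -0.06, and cytosolic ribosomal protein genes one of 0.16, with 31 of 46 higher and 0 over 2-fold.

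Metallothioneins are small proteins that bind zinc and copper and are induced by metals and stress. With their regulator and a zinc exporter, 7 of 9 measured in both were higher, 5 by over 2-fold, with a median of 1.20. MT1X read 167 and 683, MT1H 898 and 2547, MT1F 598 and 1406, MT1E 1800 and 4127, MT3 651 and 1517, and MT1B 1019 and 1907. Of these 6, MT1E at 50% confluence was above the lines (1165 to 3818), and MT1F and MT1H in the standard culture were below them. MT2A read 195 and 188, MT1G 120 and the floor, the zinc-sensing factor gene MTF1 257 and 225, and the exporter SLC30A1 413 and 492. The genes are near-identical in sequence, so that 1 transcript may reach several probe sets, and a second MT3 probe set gave -0.08. In level the standard culture, 8.99, was just below the 9.01 to 10.18 of the lines, and the other, 9.89, within them. Without female line 5 the 50% confluence culture lay above the other 8 lines.

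Antioxidant enzyme genes had a median of 0.12. NQO1, a quinone reductase gene, read 1133 and 2898 against 441 to 1576, and thioredoxin, TXN, 6237 and 12963 against 4767 to 9161. SOD3, the secreted superoxide dismutase, went the other way, 3464 and 694, within the lines. HSPB1, a small heat shock protein gene, read 9130 and 17220, above the 5735 to 14463 of the lines, while its list had a median of -0.12.

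Inflammatory genes were the 1 list in which the 50% confluence culture lay below the 9 lines in level, 8.08 against 8.16 to 8.67, with the standard culture at 8.38. Of 15 measured in both, 8 were lower and 7 higher. IL1RL1, the receptor of interleukin-33, read 1600 and 223, PTX3, a pattern recognition protein gene, 2538 and 569, and IL6 282 and the floor. All of these values were within the lines. IL1R1, the interleukin-1 receptor, read 682 and 540, and the 9 lines read 671 to 1814. NFKB1 was higher, 1259 and 1849 against 886 to 1372. Complement genes were lower in 6 of 9, with a median of -0.43 that was -0.12 when probe sets were averaged. C1S read 3970 and 2549 and CFD 901 and 483. Interferon and MHC genes had a median of 0.07, with IRF9, a factor of the interferon response, at 103 and 404 and IFI35 at 119 and 429. With a floor of 200 these 2 differences were 1.01 in place of 1.97 and 1.10 in place of 1.85. For IRF9 the standard culture was below the 161 to 670 of the lines, and a second IFI35 probe set gave 0.43. Other interferon genes of this list were lower, with IFITM1 at 1093 and 340 and ISG20 at 307 and the floor.

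The size of these differences was compared with differences between animals. The share of probe sets over 2-fold apart was 9.63% for both cultures of the line. For 36 pairs of the 9 other lines it ran from 6.85% to 19.2% with a median of 11.6%, and 12 of the 36 pairs were closer than the pair of cultures. The standard culture differed from the other lines in 6.43% to 15.7% of probe sets (median 8.43%), and the 50% confluence culture in 10.9% to 17.0% (median 12.6%). The 50% confluence value was outside the 9 lines for 19.5% of 6147 probe sets and the standard value for 13.5%.

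Probe sets that varied more over the 9 lines were more often over 2-fold apart between the cultures. Probe sets above the floor in all 11 arrays, 4540 in number, were divided into 5 groups of 908 by their SD over the 9 lines. From the least to the most variable group, 3.30%, 5.29%, 6.39%, 10.1% and 19.5% were over 2-fold apart between the cultures. The correlation between the SD over lines and the absolute difference was 0.30 (Pearson) and 0.21 (Spearman) across these 4540 probe sets, which share the same arrays and are not independent of one another.

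**Figure D5:**
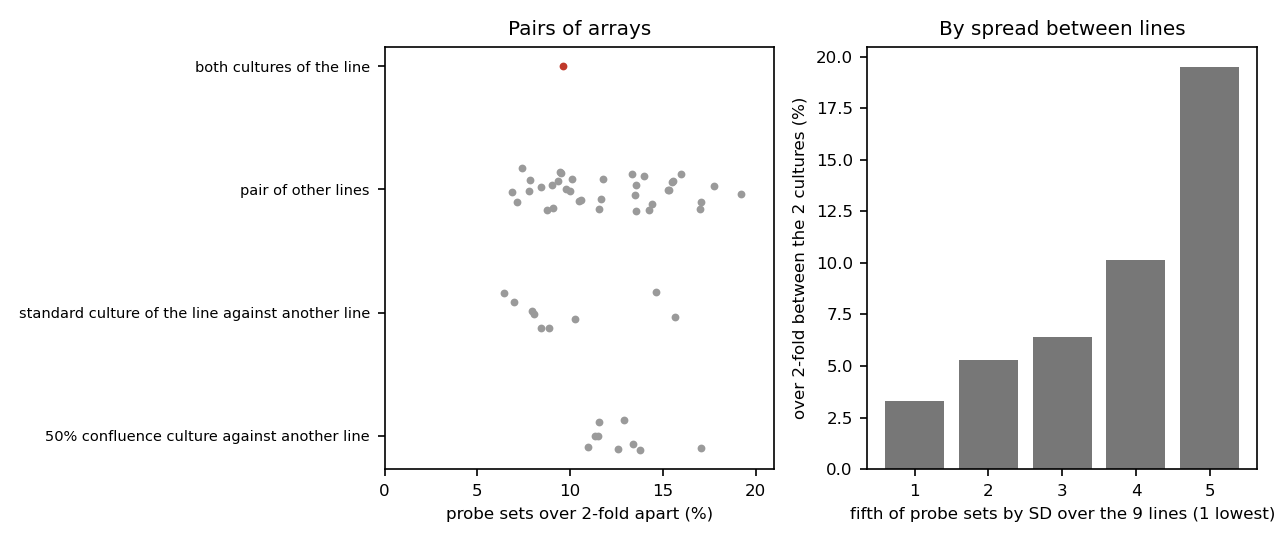
Left, the percent of probe sets over 2-fold apart for each pair of arrays: the pair of cultures of male line 1 (9.63%), 36 pairs of the 9 other lines, and each culture against the 9 lines, with points spread vertically for legibility only. Right, the percent over 2-fold apart between both cultures for 5 equal groups of 4540 probe sets by SD over the 9 lines, from 3.30% in the first to 19.5% in the last.

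Of the fibroblast marker genes, FSTL1 was at the floor in both cultures and the others were above it in both. Of 18 measured, 12 were lower at 50% confluence, with a median of -0.28, and their level was 12.16 against 12.45 in the standard culture, where the 9 lines read 11.89 to 12.42. VIM, vimentin, read 34296 and 24727, but after quantile normalization its difference of -0.47 was -0.02. THY1 read 3089 and 4690 and FAP 2755 and 3027. Of 20 keratinocyte and epithelial markers 8 were measured in both, and CDH1, E-cadherin, read 108 and the floor. KRT7 and KRT8, which some fibroblast cultures express, read 1618 and 2323, and 1091 and 1313. The mean log2 levels of the markers of endothelial cells (9.07 at 50% confluence and 9.29 in the standard culture), melanocytes (7.12 and 7.09), blood cells (7.53 and 7.60) and muscle (8.04 and 8.29) differed by at most 0.25. Adipocyte markers were at 8.01 at 50% confluence and 8.61 in the standard culture, with CFD and CEBPA (701 and 415) the largest part. These levels count only markers above the floor in at least 5 arrays. For endothelial cells they rest on FLT1, ENG and ERG, with PECAM1, CDH5 and VWF at the floor in both cultures. For muscle TNNT1 (2479 and 2862) was the brightest, with DES and MYOD1 at the floor in both. Of blood cell markers CD68 read 226 and 607, higher at 50% confluence, while CD3E (290 and 192) and HBB (293 and 151) were lower. The part of all these markers in the differences between the cultures was not tested.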

How the data were processed

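RNA of 11 bonobo fibroblast cultures was read on 1 Affymetrix human array each. The deposited values are intensities, 1 linear whole number per probe set. The authors' probe summary, scaling and lowest value are not given in the sources used here. As deposited, the lowest intensity was 100 in 9 arrays and 90 in the other 2, the 50% confluence culture among them, with 0 values between 90 and 100. All values below 100 were raised to 100 and log2 was taken, with no further scaling. Trimmed array means were 418 in the 50% confluence culture, 414 in the standard culture and 405 to 418 in the 9 lines.

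Symbols came from a probe annotation of 2016. It gave 1 symbol for 10943 of 12558 probe sets, several for 545, which were not named, and none for 1070. Of 8226 symbols, 7680 were found in the RefSeq genes of the bonobo assembly NHGRI_mPanPan1-v2.0_pri, used for names. The probes follow human sequences, and a mismatch to bonobo RNA can lower a signal. Precision is limited by the number of arrays.

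Lines were numbered by sex in accession order. The cultures and gene lists were chosen with earlier results of these data known. Genes were named by rule: the 15 largest differences each way over 2-fold with only the 50% confluence culture outside the 9 lines, up to 8 each way at the floor in 1 culture and at least 200 in the other, genes with 3 or more probe sets all over 2-fold one way, 4 or more members per described list, and all measured members of 4 small families. Some further list members were named for their role. Alternatives were quantile normalization, median centring, a loess fit of span 0.4, a floor of 200, a pseudocount of 50, genes above 100 in either culture, means over probe sets, and other sets of reference lines. Positions of list levels under other settings, and likeness to single lines, were added after seeing the data. Python 3.11.15, numpy 2.4.6, pandas 2.3.3 and statsmodels 0.14.6 were used. The code that calls differences over 2-fold was run on simulated arrays with planted differences, as a check of the code only.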

Additional observations from a re-analysis of the deposited data

Results flagged for a closer look

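Control probe sets outside the gene measurements gave a signal in the 50% confluence culture: those for 18S ribosomal RNA read 1508 at the lowest and 2611 at the highest, while the standard culture of the same line read 100.

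Among the 9 reference lines, 126 groups of values (named genes, list levels and array measures) were examined for a line far from the other 8, and 11 had one. Chance gives about 1 in 20 by the rule's nominal level, and since the groups share the same 9 arrays, no excess is read from this count. Female line 1 was that line in 5 of them: RCC1 (238), ORC1 (100, the floor), CDKN1C (1616), the level of DNA replication genes (7.64) and that of cytoskeletal intermediate filament genes (10.12). Female line 4 stood apart in MMP10 (130) and in the level of matricellular protein genes (10.76). The others were male line 2 in ADGRL2 (233), female line 5 in MT1B (3433), and male line 4 in MMP14 (1271) and in the ACTB 3' to 5' ratio (2.27).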

How the results depend on the processing

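Counts of probe sets moved by over 1.5 times mainly where the treatment of low values was altered. With a floor of 200, 167 probe sets were over 2-fold higher and 150 lower (300 and 292 as reported), 82 and 56 stood outside the 9 lines at 50% confluence alone (126 and 97), and 104 exceeded the width of the lines (164). With a pseudocount of 50, 192 were over 2-fold lower and 62 stood outside as lower. With probe sets above 100 in either culture, 479 were higher, 443 lower, 195 stood outside as higher and 318 exceeded the width. Fewer reference lines narrowed that width, with 341 over it for the 4 other male lines and 325 for the 5 lines of 12 years or less. Leaving out each line in turn gave 123 to 151 outside as higher, 94 to 125 as lower and 170 to 215 over the width. Quantile normalization, median centring and loess kept each count within 1.5 times. Of 301 list medians under other settings, 0 of those given a direction reversed, and 7 of all moved by over 1 SD of the lines. Of 118 named genes over 2-fold apart, 118 kept their sign and 102 stayed over 2-fold under all 4 of quantile normalization, median centring, loess and a floor of 200. With probe sets averaged, IDS, a lysosomal enzyme gene at 1.02 by its brightest probe set, turned to -0.079, and PDGFRA (-0.97 to 0.16), CDKN2D (0.72 to -0.11) and MMP15 (0.11 to -0.17), which were under 2-fold apart, changed sign too. Low signal limits genes near 100, where a 2-fold difference can rest on the floor. No paired analysis was possible because the 50% confluence harvest has 1 array and replicate numbers only name samples, in accession order.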

Other observations

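One of the 9 standard lines lay toward the 50% confluence culture in several groups of genes. For each line, its log2 intensity minus the median of the other 8 was set beside the difference between both cultures of male line 1, over 3463 genes above the floor in all 11 cultures. These quantities share no array. The correlation across genes was 0.28 (Pearson) and 0.27 (Spearman) for female line 1, and -0.21 to 0.10 (Pearson) for the other 8 lines. Genes are not independent of one another, so these values are a description. The comparison was chosen after seeing the data.

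Female line 1, from an animal aged 9 years and harvested under standard conditions, was the lowest or highest of the 9 lines in the direction of the 50% confluence culture in 4 of the 10 lists given a direction. Its DNA replication level was 7.64 (8.01 at 50% confluence and 8.66 in the standard culture). Its 18S ribosomal RNA controls were at 100 and its ACTB 3' to 5' ratio was 1.06. Its share of probe sets above the floor, 52.1%, was the lowest of the 11 arrays, and the part of this in its position was not tested. It differed by over 2-fold from the standard culture of male line 1 in 14.6% of probe sets and from the 50% confluence culture in 11.3%. For 8 of the 9 lines the order was the other way round, with more probe sets over 2-fold apart from the 50% confluence culture. By this share female line 1 was not the line nearest to the 50% confluence culture, since male line 3 stood at 10.9%. Against the other 8 reference lines female line 1 differed by over 2-fold in 11.6% to 17.8% of probe sets.

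Lipid genes that were far apart went in both directions. APOE, a lipid carrier gene, read 2010 and 230 and PLTP, a phospholipid transfer protein gene, 3233 and 1199, within the lines. ACADM, a gene of fatty acid oxidation in mitochondria, read 217 and 595, one culture below and the other above the 324 to 540 of the lines, and CPT1A, which lets fatty acids into mitochondria, the floor and 261 against 100 to 226. The retinoid-linked gene RARRES2 read 217 and 614, the standard culture being below the 283 to 3282 of the lines, and CRABP2, a retinoic acid carrier gene, 318 and 133 against 256 to 979. The difference of CRABP2 was -1.26, or -0.67 with a floor of 200.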
